A study of Mus musculus with 2 samples.

Results

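The 7 genes described here encode the enzymes and partners that write, copy and oxidise cytosine methylation in mouse cells: Dnmt1, Dnmt3a, Dnmt3b, Dnmt3l, Uhrf1, Tet1 and Tet2. They were chosen by symbol, and each of the 7 matched 1 of the 32285 genes listed in the count matrices. The matrices hold droplet single-cell RNA sequencing of embryonic stem cells of the inbred strain C3H/HeSn-Paf/J, grown on gelatin and irradiated feeder fibroblasts with serum and leukaemia inhibitory factor. Each of the 2 libraries pooled 9 lines, with 3 lines each derived independently from XX, XO and XY embryos. The library called time 1 was made at an early passage, and the library called time 2 after 10 further passages. Cells were not assigned to lines, so each time point is 1 sample without replicates, no test between groups was made, and passage cannot be told apart from library or from the shares of the 9 lines.

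DNA methyltransferase 1 (Dnmt1) copies methylation onto the new strand after replication, and Uhrf1 binds hemimethylated DNA and brings Dnmt1 there. Dnmt3a and Dnmt3b methylate DNA that carried no mark, and Dnmt3l is an inactive relative that stimulates both. Tet1 and Tet2 oxidise methylcytosine, which starts its removal. Embryonic stem cells in serum shift between a naive state and states closer to the post-implantation epiblast, called primed, in which methylation is high; a rare state that resembles the embryo at the 2-cell stage has low methylation.

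The promoters differed in CpG content, the substrate of the enzymes, so sequences are shown for Dnmt3b, which was higher in primed cells, and for Dnmt3l and Tet1, which were lower there. RefSeq (GRCm38.p6) gave 14 start sites for the 7 genes, each with a window of 300 bases from 250 before to 50 after the start. The Dnmt3b window (2:153649199-153649498, plus strand) held 30 CpG, and 89.4% of 32851 windows of all genes held that many or fewer. The windows of the 3 Dnmt3l starts held 6, 4 and 3 CpG (percentiles 47.9, 38 and 31.4), the Tet1 window 17 (percentile 70.3) and the Tet2 window 57 (percentile 99.9). The median over all windows was 7 CpG. Below are the bases that run up to the start without an annotated exon, 5′ to 3′ on the gene's strand, with each CpG in capitals; bases from an upstream exon outward were left out for Dnmt3l and Tet1.
Dnmt3b, chr2:153649199-153649448, plus strand: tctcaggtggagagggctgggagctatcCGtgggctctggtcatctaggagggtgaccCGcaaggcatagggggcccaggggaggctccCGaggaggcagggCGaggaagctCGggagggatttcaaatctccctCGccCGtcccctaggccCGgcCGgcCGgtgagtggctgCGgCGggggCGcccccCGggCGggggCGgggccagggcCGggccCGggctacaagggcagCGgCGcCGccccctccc
Dnmt3l, start 1, chr10:78042136-78042286, plus strand: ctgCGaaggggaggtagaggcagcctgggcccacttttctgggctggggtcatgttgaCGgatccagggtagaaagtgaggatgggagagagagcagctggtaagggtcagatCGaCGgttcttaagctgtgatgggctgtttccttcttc
Tet1, chr10:62887325-62887412, minus strand: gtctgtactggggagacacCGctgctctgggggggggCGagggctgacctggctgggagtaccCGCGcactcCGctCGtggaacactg

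The E2F motif, in 4 forms, the site of a family of factors that drive S-phase genes (TTTGGCGC, TTTCCCGC, TTTCGCGC and TTTGCCGC, on both strands), and the octamer ATGCAAAT were searched in the same windows. An E2F form was found in 2 of the 14 windows of the 7 genes, 1 of Uhrf1 and 1 of Dnmt1, the pair that maintains methylation, against 2.26% of all windows. The other windows of this pair had none. Each of the 2 windows held 33 CpG (percentile 92.3) and every E2F form contains a CpG, so all windows are not a like background. Of the 250 bases before start 3 of Dnmt1, 166 lie in annotated exons. The octamer was in 0 of the 14 and in 1.74% of all windows. The 250 bases before start 2 of Uhrf1 and the 30 bases around each match at start 3 of Dnmt1 follow, with the match in capitals; the first Dnmt1 match lies on the opposite strand, 219 bases before the start, and the second 33 bases after it. A match describes letters in a window and does not show binding.
Uhrf1, start 2, chr17:56304063-56304312, plus strand: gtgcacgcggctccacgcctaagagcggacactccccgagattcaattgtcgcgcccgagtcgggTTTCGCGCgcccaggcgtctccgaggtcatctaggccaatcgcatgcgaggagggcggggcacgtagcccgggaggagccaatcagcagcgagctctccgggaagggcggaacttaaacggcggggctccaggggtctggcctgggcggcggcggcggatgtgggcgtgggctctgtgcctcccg
Dnmt1, start 3, chr9:20952824-20952853, minus strand: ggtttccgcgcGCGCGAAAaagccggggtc
Dnmt1, start 3, chr9:20952574-20952603, minus strand: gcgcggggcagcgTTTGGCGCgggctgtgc

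In GRCm38 coordinates of the GENCODE M21 annotation, Dnmt1 (ENSMUSG00000004099) lies on chromosome 9 from 20907209 to 20959888 on the minus strand. Dnmt3a (ENSMUSG00000020661) lies on chromosome 12 from 3806007 to 3914443 and Dnmt3b (ENSMUSG00000027478) on chromosome 2 from 153649450 to 153687730, both on the plus strand. Dnmt3l (ENSMUSG00000000730) lies on chromosome 10 from 78041947 to 78063622 on the plus strand, and Uhrf1 (ENSMUSG00000001228) on chromosome 17 from 56303321 to 56323486 on the plus strand. Tet1 (ENSMUSG00000047146) lies on chromosome 10 from 62804570 to 62908996 and Tet2 (ENSMUSG00000040943) on chromosome 3 from 133463679 to 133545139, both on the minus strand. Dnmt3a, Dnmt3b and Tet2 each overlap an antisense gene and Dnmt3l overlaps Aire on the opposite strand. Tet1 overlaps Gm48353 and Gm26479, and Dnmt1 overlaps Mir7081, on the gene's own strand. How strand was used in counting is not given in the sources used here, so UMIs of the overlapping genes may not be told apart.

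The matrices held 1735810403 unique molecular identifiers (UMIs, counts of single RNA molecules) at time 1 and 1843588321 at time 2. Filtering left 23138 cells of time 1 (median 43552.5 UMIs per cell) and 25373 of time 2 (median 50222). The libraries shared 157 of the filtered barcodes. Cells fell into 16 clusters, which were made without the 7 genes and the related lists and are called by a leading gene. The 4 clusters named pluripotent stem cell-like, led by 1700097N02Rik, Rhox9, Nanos3 and Jam2, held 9065 cells at time 1 and 19986 at time 2. The Rhox9-led cluster held 79.4% of them at time 1 and 3.32% at time 2, and the 1700097N02Rik-led cluster 0.739% and 63.1%, so most of this class came from different clusters at the 2 times. Levels are in CPM, a gene's UMIs per 1000000 UMIs summed over the cells of a class in 1 library, with exact Poisson 95% intervals that cover counting error only. A difference is given as the fold between 2 summed levels and as the log2 ratio of CPM plus 1, and is called past 1.5-fold where that ratio is. Levels are compared within a gene, not between genes.

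Dnmt3b was highest in the Fgf8-led cluster named primed epiblast-like, at 342 CPM at time 1 (95% interval 340 to 344) and 373 CPM at time 2 (361 to 385). That cluster, with 6199 cells at time 1 and 204 at time 2, was also led by Fgf5 and Pou3f1, markers of the primed state, and by Fos, Fosb and Egr1, genes induced by cell dissociation and growth factors. Next at time 2 came the unnamed Car2-led cluster, whose leading genes include the mesoderm gene T and the neural gene Nes, at 339 CPM (337 to 341). The lowest Dnmt3b level at both times was that of the fibroblast-like cluster, 16.5 and 13.4 CPM. Within the pluripotent stem cell-like class, Dnmt3b ran at time 2 from 56.1 CPM in the Nanos3-led to 86.0 CPM in the Rhox9-led cluster. Between the highest and the lowest cluster lay 20.8-fold at time 1 and 27.9-fold at time 2, the widest range of the 7 genes at both times, over 14 and 13 clusters of at least 50 cells. That order rested on the fibroblast-like cluster: without it the range of Dnmt3b was 5.86-fold and 6.65-fold, and Dnmt3l had the widest, 13.96-fold and 24.3-fold. The lowest Dnmt3b level at time 1 was then 58.4 CPM, in an unnamed cluster of 70 cells led by Krt18, Card19 and Gng3.

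Dnmt3l, the inactive cofactor, followed another order. It was highest in the Jam2-led pluripotent stem cell-like cluster, at 276 CPM at time 1 (273 to 279) and 188 CPM at time 2 (186 to 191). The primed epiblast-like cluster had 72.4 and 44.9 CPM. The mesendoderm-like cluster, led by Lhx1, Gsc and Mixl1, had 19.7 and 7.76 CPM. At time 1 the interval of the mesendoderm-like cluster (16.9 to 23.0) overlapped that of the fibroblast-like cluster (16.2 to 21.0), and at time 2 it lay below it (6.08 to 9.75 against 12.3 to 15.4). At time 2 the endoderm-like cluster, led by Srgn and Dab2, had 184 CPM (172 to 196), an interval that overlapped that of the Jam2-led cluster.

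Dnmt3a was highest at time 1 in the Car2-led cluster, at 103 CPM (95.6 to 110.0), and at time 2 in the endothelium-like cluster, led by Ctla2a, Ramp2 and Kdr, at 95.5 CPM (89.3 to 102.0). At time 2 the two-cell-like cluster, at 91.6 CPM (81.1 to 103.0), overlapped the endothelium-like one. Among clusters of at least 50 cells the lowest level was again that of fibroblast-like cells, 13 and 13.5 CPM.

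The maintenance pair varied least among clusters that were not fibroblast-like: the highest level was 3.42 and 2.07 times the lowest for Dnmt1, and 2.83 and 2.00 times for Uhrf1, against 5.86 times or more at time 1 and 4.50 times or more at time 2 for the other 5 genes. At time 1 the lowest of these levels was that of the unnamed cluster led by Krt18 and Card19 for Dnmt1 (35.7 CPM) and Uhrf1 (51.9 CPM). The same cluster was lowest for Dnmt3a, Dnmt3b and Tet1, and the ranges were not recomputed without it. Dnmt1 was highest in the Nanos3-led cluster, at 122 CPM at time 1 and 120 CPM at time 2, when its interval overlapped that of the Rhox9-led cluster (117 CPM). Uhrf1 was highest at time 1 in the 1700097N02Rik-led cluster (147 CPM), which overlapped the Jam2-led one (146 CPM), and at time 2 in the Jam2-led one (150 CPM). With the clusters of a library put in order of level, neighbours whose intervals overlapped numbered from 4 for Dnmt3b to 10 for Tet2, the gene at the lowest levels, at time 1, and from 4 for Dnmt3b and Dnmt3l to 9 for Uhrf1 and Tet2 at time 2. Fibroblast-like cells, the class that feeder cells would fall in, had 18.7 CPM of each gene at time 1, and 28.0 CPM of Dnmt1 and 19.5 CPM of Uhrf1 at time 2.

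Tet1 and Tet2 were highest in pluripotent stem cell-like clusters. Tet1 was highest at time 2 in the Jam2-led cluster, at 262 CPM (259 to 264), and at time 1 in the Nanos3-led cluster, at 213 CPM (199 to 228), which overlapped the 1700097N02Rik-led one (193 to 219). Tet2 was highest in the Jam2-led cluster at both times, at 33.3 CPM (32.3 to 34.4) and 58.1 CPM (56.8 to 59.4). In the mesendoderm-like cluster Tet2 was at 4.23 and 3.72 CPM, a cluster total of 36 UMIs at time 1. In fibroblast-like cells Tet2 stood at 59.0% and 35.3% of its pluripotent level, Tet1 at 8.21% and 9.93%, and the median over 12 pluripotency markers was 8.19% and 10.5%. The part of free RNA in the low levels was not tested.

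**Figure D1:**
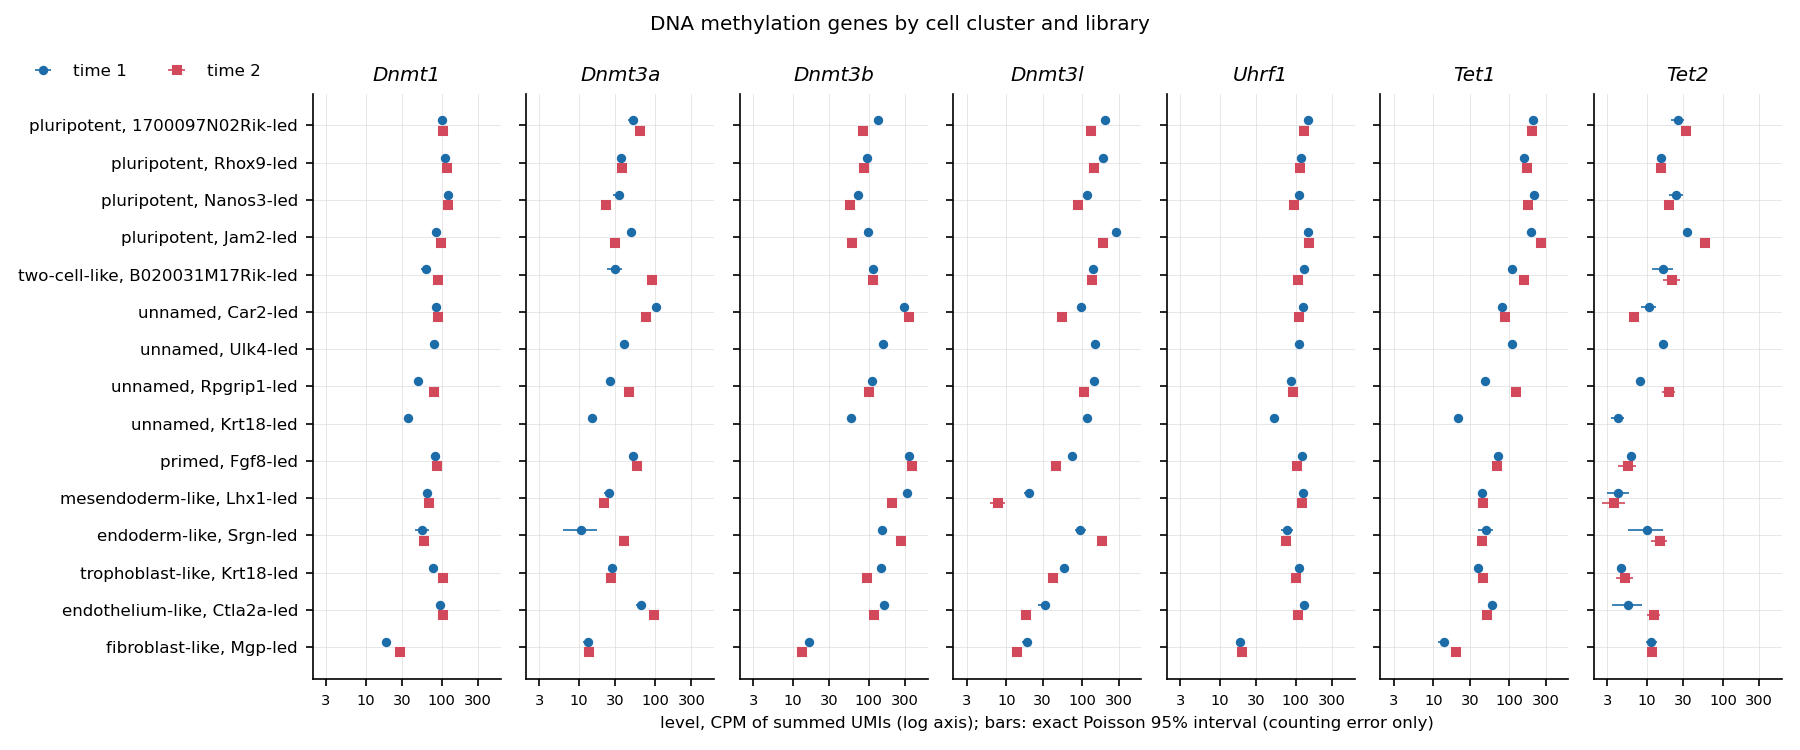
Level of each of the 7 genes (CPM on a log axis, with exact Poisson 95% intervals) in every cluster with at least 40 cells in the library, 1 panel per gene, with circles for time 1 and squares for time 2. Dnmt3b peaked in the Fgf8-led cluster, Dnmt3l, Tet1 and Tet2 peaked in pluripotent stem cell-like clusters, and the fibroblast-like cluster was among the lowest for every gene but Tet2.

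The primed epiblast-like cells were then compared with the pluripotent stem cell-like cells of the same library. Summed over the 5 primed markers, the level was 453 CPM in the primed class and 77.8 CPM in the pluripotent class at time 1, and 423 and 46.2 CPM at time 2. All 12 pluripotency markers were detected in both classes, and their sum was lower in the primed class, at 4511 against 11275 CPM at time 1 and 3733 against 7539 CPM at time 2; its part in the results was not tested. All 7 genes reached 10 CPM in the pluripotent class, while Tet2 stayed under it in primed, Car2-led and mesendoderm-like cells, as did Dnmt3l in mesendoderm-like cells at time 2. Of the 7 genes, 4 were past 1.5-fold at time 1, where 19.5% of the 7623 genes tested (10 CPM or more in either class) were (9.47% higher and 9.98% lower), and 4 at time 2, where 25.3% of 7459 were (15.6% and 9.71%). The same 4 genes passed at both times: Dnmt3b was higher, and Dnmt3l, Tet1 and Tet2 were lower.

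Dnmt3b was at 342 CPM in primed and 94.9 CPM in pluripotent cells at time 1, and at 373 and 75.5 CPM at time 2. The fold was 3.61 (95% interval 3.57 to 3.65; log2 ratio 1.84) and 4.94 (4.77 to 5.11; 2.29), above 98.7% and 98.8% of the genes tested. Dnmt3l was at 72.4 against 205 CPM at time 1 and at 44.9 against 128 CPM at time 2, with log2 ratios of -1.49 and -1.50. The catalytic subunit and its cofactor thus stood on opposite sides.

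Tet1 was at 70.0 against 166 CPM at time 1 (log2 ratio -1.23) and at 68.3 against 202 CPM at time 2 (-1.55). Tet2 was at 6.27 against 19.4 CPM (-1.49) and at 5.56 against 32.9 CPM (-2.37), the latter below all but 0.711% of the genes tested. Both oxidising enzymes were lower in primed cells. Dnmt3a did not pass the limit, at 50.6 against 38.7 CPM (0.38) and 58.5 against 50.4 CPM (0.21). Nor did Dnmt1, with ratios of -0.35 and -0.27, or Uhrf1, with -0.07 and -0.26. None of the calls on Dnmt3b, Dnmt3l, Tet1 and Tet2 was lost under the 13 alternatives run at each time; without the 1700097N02Rik-led cluster, Dnmt3a at time 2 had a ratio of 1.14.

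The unnamed Car2-led cluster held 3975 cells at time 2 and had 293 CPM of primed markers and 63.2 CPM of mesendoderm markers, against 46.2 and 6.36 CPM in pluripotent stem cell-like cells. Of the 7 genes, 5 were past 1.5-fold, where 19.4% of 7277 genes were (10.3% higher and 9.14% lower). Dnmt3b was at 339 against 75.5 CPM, 4.49-fold (4.44 to 4.53), and Dnmt3a at 76.3 against 50.4 CPM, 1.52-fold (1.49 to 1.54). Both catalytic de novo enzymes were thus higher there. Dnmt3l (-1.22), Tet1 (-1.21) and Tet2 (-2.13) were lower, as in primed cells, and Dnmt1 (-0.25) and Uhrf1 (-0.16) were within the limit. The Dnmt3a ratio lay at the limit and ran from 0.41 to 1.52 over the alternatives.

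The mesendoderm-like cells, 191 at time 1 and 197 at time 2, express genes of the primitive streak. In them 6 of the 7 genes were past 1.5-fold at each time, against 34.8% of 7961 genes at time 1 (19.5% higher, 15.3% lower) and 37.3% of 7613 at time 2 (21.7% higher, 15.7% lower), a higher share of all genes than in primed cells. Dnmt3b was 3.32-fold higher (3.20 to 3.46) at time 1 and 2.69-fold (2.57 to 2.82) at time 2. Dnmt3l differed most, at 19.7 against 205 CPM at time 1 and 7.76 against 128 CPM at time 2, with log2 ratios of -3.32 and -3.89. Tet1 (-1.89 and -2.15), Tet2 (-1.96 and -2.84), Dnmt1 (-0.69 and -0.63) and Dnmt3a (-0.63 and -1.21) were lower as well. Uhrf1 stayed within 1.5-fold, at 123 against 125 CPM and 122 against 125 CPM. The Dnmt1 and Dnmt3a ratios moved inside the limit under several alternatives, Dnmt3a at time 2 to -0.28 without the 1700097N02Rik-led cluster.

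**Figure D2:**
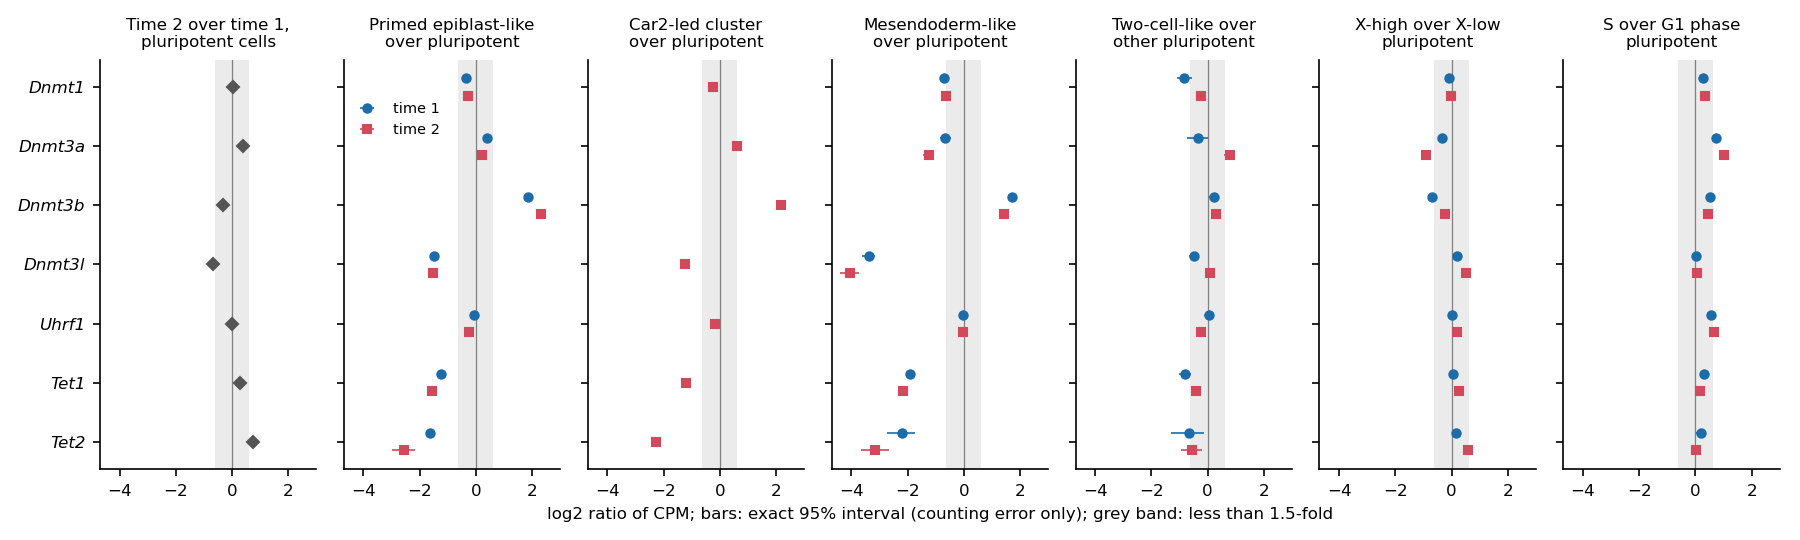
Log2 ratio of CPM, without the added 1, for each of the 7 genes, with 1 panel per comparison and 95% counting intervals; circles stand for time 1, squares for time 2 and diamonds for time 2 over time 1, and the grey band spans less than 1.5-fold. Dnmt3b lies to the right and Dnmt3l, Tet1 and Tet2 to the left in the primed, Car2-led and mesendoderm-like comparisons, while Uhrf1 stays inside the band in these.

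Between the libraries, Dnmt3l was lower and Tet2 higher at time 2 in pluripotent stem cell-like cells. These were 2 of the 7 genes past 1.5-fold, where 16.1% of 7327 genes were (5.57% higher and 10.5% lower). Dnmt3l was at 205 CPM at time 1 and 128 CPM at time 2, a fold of 0.625 (0.620 to 0.630; log2 ratio -0.67). Tet2 was at 19.4 and 32.9 CPM, a fold of 1.70 (1.66 to 1.73, log2 ratio 0.73). The 12 pluripotency markers of the class summed to 11275 CPM at time 1 and 7539 CPM at time 2. Dppa5a, 1 of them, was at 8407 and 4492 CPM. The part of this shift in the values was not tested.

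The other 5 genes were within the limit. Dnmt3a was at 38.7 and 50.4 CPM (log2 ratio 0.37), a direction that turned to -0.56 without the 1700097N02Rik-led cluster. Dnmt3b was at 94.9 and 75.5 CPM (-0.33), and Tet1 at 166 and 202 CPM (0.28). Over all filtered cells the Tet1 ratio was 0.68, past the limit. Dnmt1 was at 104 and 106 CPM, and Uhrf1 at 125 CPM in both libraries, with a fold interval of 0.991 to 1.01. In the pooled class the maintenance genes thus differed least between the libraries. This did not hold inside the Rhox9-led cluster, where Tet2 (0.01) and Dnmt3a (0.02) differed less than Uhrf1 (-0.04) and Dnmt1 (0.09).

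The class also differed in X dosage, read as described for the X comparison, with 5073 X-high and 2714 X-low cells at time 1 against 3103 and 14339 at time 2, and the part of this shift in the values was not tested. Because the class is made of different clusters at the 2 times, the same comparison was made inside each of the 13 clusters with at least 40 cells in both libraries. Dnmt3l was lower at time 2 in 12 of the 13, with an interval below 1 in 11, and its folds ran from 0.393 to 1.95. The exception, at 1.95, was the endoderm-like cluster, with 47 and 80 cells. In the 5 clusters with at least 200 cells in both libraries, Dnmt3l was lower in 5 of 5, with folds from 0.620 to 0.766. Of these, only the Rhox9-led and Jam2-led clusters are pluripotent stem cell-like. The others are primed epiblast-like, trophoblast-like and fibroblast-like. All clusters come from the same libraries, so these counts of clusters are not independent repeats. The part of free RNA in the fold of the fibroblast-like cluster was not tested. The pooled Dnmt3l difference was -0.53 with trimmed mean scaling, which shifted all ratios of this comparison by 0.14, and it was -0.35 over all filtered cells, both inside the limit.

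Tet2 depended on the cluster. Its fold was 1.74 in the Jam2-led cluster (33.3 and 58.1 CPM), 1.3 in the 1700097N02Rik-led cluster (1.08 to 1.58), near 1 in the Rhox9-led cluster (15.1 and 15.2 CPM) and 0.804 in the Nanos3-led cluster (0.657 to 0.994). Without the Rhox9-led cluster, which held most of the class at time 1, the pooled Tet2 ratio was 0.02. In the Jam2-led cluster Dnmt3a (48.4 and 29.2 CPM) and Dnmt3b (97.8 and 59.4 CPM) were also lower at time 2, with folds of 0.604 and 0.607, and Tet1 was higher (191 and 262 CPM). Over all genes of that cluster, 7212 tested, 5.03% were past 1.5-fold lower and 1.83% higher. Dnmt1 was higher at time 2 in 12 of 13 clusters, by 1.60-fold at most and with a median fold of 1.08. Its interval lay above 1 in 7 of them. Dnmt3b and Uhrf1 were each lower in 10 of 13, with median folds of 0.811 and 0.917, and Uhrf1 was never past 1.5-fold. For Dnmt3b the interval lay below 1 in 8 clusters and above 1 in 3, with a highest fold of 1.76. For Uhrf1 it lay below 1 in 7 and above 1 in 1. Among the 5 clusters with at least 200 cells in both libraries, Dnmt3b was lower in 4 and Uhrf1 in 3. Without the 1700097N02Rik-led cluster the pooled Dnmt3b ratio was -0.66.

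**Figure D3:**
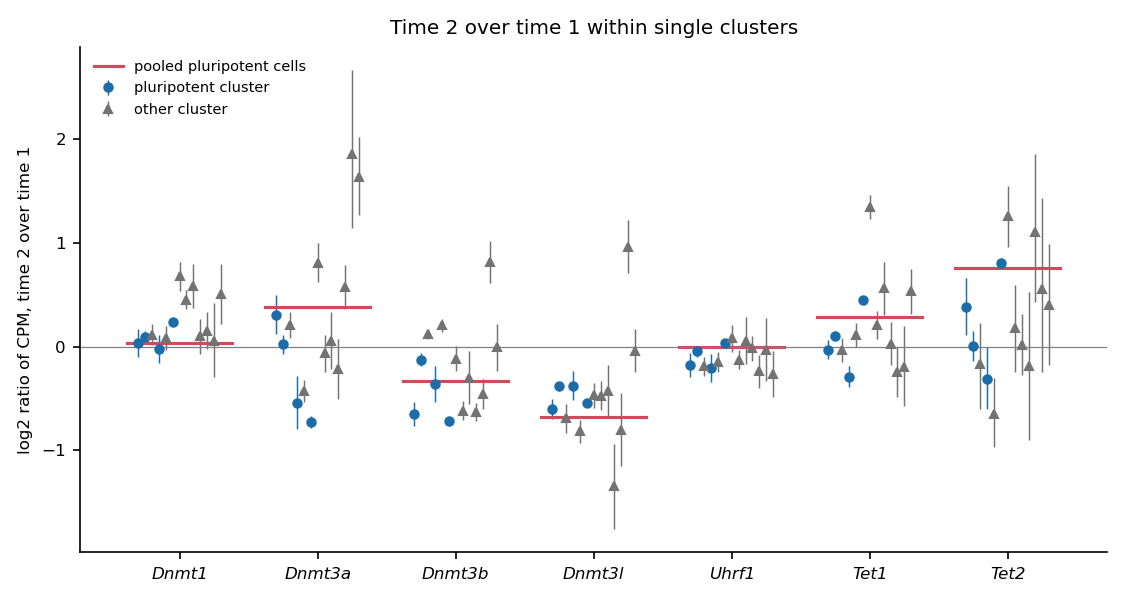
Log2 ratio of CPM at time 2 over time 1 within each of the 13 clusters with at least 40 cells in both libraries for each of the 7 genes, with 95% counting intervals; circles are pluripotent stem cell-like clusters, triangles other clusters, and red bars the pooled pluripotent stem cell-like class. Nearly all Dnmt3l points lie below 0 (12 of 13), and Dnmt3a points spread widely on both sides.

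Cells of the two-cell-like state were rare: 51 cells at time 1 and 46 at time 2, or 0.220% and 0.181% of filtered cells, had at least 10 UMIs of the 12 listed markers found in the files (Zscan4, Zfp352, Tcstv and Usp17l genes and Tmem92), from at least 3 of them. These markers summed to 2569 CPM at time 1 and 817 CPM at time 2, against 0.971 and 0.359 CPM in the other pluripotent stem cell-like cells. The cut is a point on a range: 18 and 8 cells had 5 to 9 marker UMIs, and 5 and 7 cells had 10 to 14. Of the 7 genes, 3 were past 1.5-fold at time 1, where 31.5% of 7891 genes were (12.9% higher, 18.6% lower), and 1 at time 2, where 14.2% of 7301 were (9.48% higher, 4.7% lower). Read against these shares, neither count stands apart.

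Dnmt1 was at 58.7 CPM (48.9 to 69.9) in two-cell-like and 104 CPM in other cells at time 1, a fold of 0.565 (0.470 to 0.672), and at 90.2 against 106 CPM at time 2, a fold of 0.849 (0.745 to 0.962). Tet1 was at 95.5 against 166 CPM at time 1 (fold 0.576) and 152 against 202 CPM at time 2 (0.753). Tet2 was at 12.1 against 19.4 CPM, from 26 UMIs, and at 22.2 against 32.9 CPM. All 3 were lower in two-cell-like cells at both times, and past the limit at time 1 only; whether the times differ was not tested. When doublets were kept, none of the 3 passed at time 1, while Tet2 passed at time 2 (log2 ratio -0.68). Tet2 stayed on its side of the limit in 9 of 15 alternatives at each time. For the cells of the two-cell-like cluster its ratios were -0.24 and -0.60.

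Dnmt3a took opposite sides: it was at 30.3 against 38.7 CPM at time 1, a fold of 0.782 (0.603 to 0.998), and at 86.5 against 50.4 CPM at time 2, a fold of 1.72 (1.5 to 1.95). After thinning every cell to 10000 UMIs, 15.7% of two-cell-like cells at time 1 held a Dnmt3a UMI (exact 95% interval 7.02 to 28.6%) against 27.4% of others, and 41.3% (27.0 to 56.8%) against 32.3% at time 2. The interval includes the share of the other cells at both times. It takes cells as independent draws, so it does not judge a difference between the groups. With all UMIs the shares were 64.7% against 68.2% and 84.8% against 72.8%. The two-cell-like cells at time 1 had a median of 39741 UMIs, and those at time 2 47654. On the autosomes examined, no gain was called in 48 of the 51 two-cell-like cells at time 1 and 25 of 46 at time 2. By the phase calls and X dosage described below, 6 and 0 of them were in G1, 43 and 44 in G2/M, and 31 and 21 were X-high. The cells of the 2 times thus also differed in gains, phase calls and X dosage, and the part of these in the result was not tested.

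Dnmt3b was slightly higher in two-cell-like cells at both times, at 111 against 94.9 CPM (fold 1.17, 1.03 to 1.33) and 93.5 against 75.5 CPM (1.24, 1.09 to 1.4). The thinned shares of cells with a Dnmt3b UMI were 56.9% (42.2 to 70.7%) against 49.2% and 47.8% (32.9 to 63.1%) against 42.2%. These intervals, of the same kind, include the share of the other cells. With all UMIs the shares were 86.3% against 86.8% and, on the other side, 71.7% against 82.2%. Dnmt3l was lower at time 1, at 146 against 205 CPM, and at 136 against 128 CPM at time 2 its interval (0.953 to 1.17) included 1. Uhrf1 was at 129 against 125 CPM and 107 against 125 CPM. The Dnmt3b folds of two-cell-like cells thus lay below the 3.61 and 4.94 of primed cells.

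X dosage, the question of the study, was read per cell as X-linked over autosomal UMIs relative to cells with Y transcripts. Among pluripotent stem cell-like cells without a Y UMI, cells at or above 1.2 times the Y-positive median were called X-high: 5073 against 2714 X-low cells at time 1, and 3103 against 14339 at time 2. Between 1.1 and 1.3 lay 6.41% and 10.5% of these cells, so the classes are ranges. Of the 7 genes, 1 was past 1.5-fold at each time, against 7.84% of 7356 genes at time 1 (1.81% lower) and 10.0% of 7079 at time 2 (2.34% lower). A count of 1 is too small to set the 7 genes apart from these shares. The gene was not the same at the 2 times, and at each it was lower in X-high cells.

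At time 1 the gene was Dnmt3b, at 75 CPM in X-high and 122 CPM in X-low cells, a fold of 0.613 (0.600 to 0.625), below all but 1.07% of genes. Y-positive cells, 642 in number, were at 146 CPM. At time 2 the gene was Dnmt3a, at 29.3 against 54.6 CPM, a fold of 0.537 (0.522 to 0.552), below all but 0.537% of genes, with 57.0 CPM in 1377 Y-positive cells. Each gene was on the same side at the other time, Dnmt3a at 34.8 against 43.9 CPM and Dnmt3b at 64.3 against 75.8 CPM, within the limit.

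The classes drew on different clusters, so the comparison was repeated inside them. In the Rhox9-led cluster Dnmt3b was at 63.3 against 123 CPM at time 1 (fold 0.515, 3489 and 2585 cells) and 60.6 against 107 CPM at time 2 (0.567, 329 and 239 cells), and Dnmt3a had folds of 0.645 and 0.584. At time 2 the Jam2-led cluster, with 1932 X-high and 69 X-low cells, had folds of 0.595 for Dnmt3a and 0.764 for Dnmt3b. The 1700097N02Rik-led cluster had 0.650 and 1.09, and the Nanos3-led cluster 0.992 and 1.23. X-high cells thus had less Dnmt3a than X-low cells in 3 of the 4 clusters compared at time 2, and less Dnmt3b in 2 of them.

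The pooled ratios moved with the clusters that were pooled, so they do not stand for the difference inside a cluster. At time 2 the 1700097N02Rik-led cluster held 73.0% of X-low and 10.4% of X-high cells. The Nanos3-led cluster, lowest of the class in Dnmt3a (22.7 CPM), held 24.9% and 16.7%. Without the Rhox9-led cluster the pooled Dnmt3b ratio at time 1 was -0.23 in place of -0.70. Without the 1700097N02Rik-led cluster the pooled Dnmt3a ratio at time 2 was 0.20 in place of -0.88. A gain was called in 1.46% of X-high and 32.1% of X-low cells at time 1, and in 15.6% and 93.5% at time 2. Among cells with no called gain, the Dnmt3b ratio at time 2 was -1.08 in place of -0.23. X-high cells at time 2 also had more Dnmt3l (170 against 118 CPM, fold 1.44) and Tet2 (45.5 against 30.04 CPM, 1.51, with a log2 ratio of 0.58 that is inside the limit), where 62.3% of X-high and 0.481% of X-low cells were of the Jam2-led cluster, the one highest in both genes. Inside the 4 clusters the Tet2 folds at time 2 were 0.865 to 1.1 and the Dnmt3l folds 0.996 to 1.33, and without the Jam2-led cluster the pooled Tet2 ratio was -0.38.

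Phases were called in pluripotent stem cell-like cells from S and G2/M gene lists without the 7 genes. S-phase cells were compared with G1-phase cells: 1 of the 7 genes was past 1.5-fold at time 1, against 1.01% of 7136 genes (0.603% higher, 0.406% lower), and 2 at time 2, against 2.09% of 6880 (1.18% higher, 0.916% lower). Dnmt3a was at 37.8 CPM in S and 22.6 CPM in G1 cells at time 1 (fold 1.67, 1.52 to 1.84) and 49.1 against 24.2 CPM at time 2 (2.03, 1.85 to 2.23), above 99.9% of genes at both times. Uhrf1 was at 149 against 103 CPM (1.45) and 147 against 91.9 CPM (1.60, past the limit). Dnmt3b (1.43 and 1.37) and Dnmt1 (1.2 and 1.27) were on the same side. So were Tet1 (log2 ratios 0.30 and 0.17) and Tet2 (0.19 and 0.02), within the limit. Dnmt3l, at 191 against 190 CPM and 124 against 119 CPM, differed little.

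Few cells were called G1, 562 and 414, against 6614 and 13797 called G2/M, and the S lists' Rrm2 was at 278 CPM in S and 185 CPM in G2/M cells at time 1. Against G2/M cells, 0 of the 7 genes passed, where 0.969% of 7227 genes at time 1 (0.111% higher, 0.858% lower) and 0.571% of 6828 at time 2 (0.19% higher, 0.381% lower) did, and Uhrf1 was again higher in S cells, at 149 against 120 CPM and 147 against 118 CPM (fold 1.24 at both times). Dnmt3a was not higher in S than in G2/M cells, at 37.8 against 39.9 CPM at time 1 and 49.1 against 51.4 CPM at time 2. The median depth at time 1 was 42843 UMIs in S cells and 36674.5 in G1 cells, and no cycling state is read from these calls. Among the deeper cells of each class the Dnmt3a ratio at time 1 was 0.58, just inside the limit.

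Other genes of DNA methylation were grouped in lists, of which 4 are described here. A gene counted as measured when it reached 10 CPM in either class, so a gene measured through 1 class only tends to be past the limit toward that class. Partners of maintenance and of methylation at repeats and imprints numbered 14, of which 13 were at 10 CPM or more. In primed cells 0 of the 13 were higher and 1 lower at time 1 (median log2 ratio -0.09, against 0.04 over all genes tested), and 1 was higher and 3 lower at time 2 (-0.33, against 0.05). Zfp57, which keeps imprints methylated, was lower at both times (-1.53 and -2.32). Of 11 demethylation genes 8 were measured, with 0 higher and 1 lower at time 1 (median -0.04, where 9.47% of all genes were higher and 9.98% lower) and 2 higher and 1 lower at time 2 (median -0.09, against 15.6% and 9.71%). Dppa3, which keeps Uhrf1 from chromatin and was the inhibitor of methylation measured there, was lower (-2.22 and -1.42).

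Of 13 germline genes known to be silenced by promoter methylation, 5 were measured in primed cells: 1 was higher and 3 were lower at each time (medians -1.39 and -0.87), where 9.98% of all genes at time 1 and 9.71% at time 2 were lower. Of the 5, 3 reached 10 CPM in both classes. At time 1, 1 did so in the pluripotent class only and 1 in the primed class only. At time 2, 2 did so in the pluripotent class only. Measurement through the pluripotent class only favours the lower side, so the counts of lower genes lean that way. Rpl10l (-1.95 and -1.59), Hormad1 (-2.01 and -1.12) and Tex19.1 (-1.39 and -0.87) were lower, while Sycp3 was higher (0.68 and 1.37). In mesendoderm-like cells 4 of 4 and 5 of 5 measured germline genes were lower (medians -3.43 and -3.35, against 0.07 and 0.06 over all genes, of which 15.3% and 15.7% were lower). Each of them was measured through the pluripotent class only, which favours this side, so nothing is read from these counts. In these cells Dppa3 had ratios of -4.48 and -5.07, the latter measured through the pluripotent class only. Tet3, the third oxidising enzyme, was higher (1.78 and 1.97) but measured through the mesendoderm-like cells only.

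In two-cell-like cells, 9 germline genes were measured at time 1 and 8 at time 2, but 5 and 3 of these reached 10 CPM through the two-cell-like cells only. Of the genes at 10 CPM or more in the other cells, 1 of 4 was higher at time 1 (where 12.9% of all genes were) and 4 of 5 at time 2 (9.48%), with 0 lower at either time. Sycp1 (2.06 and 2.37), Dazl (1.62 and 1.76) and Taf7l (1.32 and 2.73), genes of meiosis and germ cells, were higher but measured through the two-cell-like cells only. Dppa3 was higher at time 1 (1.44) and within the limit at time 2 (0.28). Mbd4, a glycosylase of base excision repair, was higher (1.72 and 1.06), at time 2 measured through the two-cell-like cells only. Uhrf2, the relative of Uhrf1, was higher (0.99 and 0.82), and Gadd45a was lower (-1.84 and -1.01). Of the 13 measured partners, 1 was higher and 4 lower at time 1, and 1 higher and 0 lower at time 2. Of 8 demethylation genes, 1 was higher and 2 lower at each time. Over all genes 12.9% were higher and 18.6% lower at time 1, and 9.48% and 4.7% at time 2.

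In X-high cells, 3 of the 4 germline genes at 10 CPM or more in X-low cells were higher at time 1, where 6.04% of all genes were, and 3 of 5 at time 2, where 7.66% were, with 0 lower. These were the same 3 genes at both times: Hormad1 had ratios of 1.71 and 1.36, Rpl10l 1.21 and 1.06, and Tex19.1 0.77 and 0.60. Dazl (0.89 and 1.80) was measured through X-high cells only. Of 13 partners, 0 passed at time 1 and 1 at time 2, against 7.84% and 10.0% of all genes. As described for the X comparison, X-high and X-low cells drew on different clusters and differed in called gains. The part of these differences in the counts and ratios of the list genes was not tested, so they are not read as an effect of X dosage.

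Between the libraries, 1 of 13 partners was higher (median 0.26, against -0.03 over all genes), 2 of 8 demethylation genes were higher and 2 lower, and 2 of 5 germline genes were lower and 0 higher (median -0.52, where 10.5% of all genes were lower and 5.57% higher). Parp1 (0.98) and Apex1 (0.82), both of base repair, were higher at time 2. Gadd45a (-0.98), Hormad1 (-0.97), Dppa3 (-0.90) and Sycp3 (-0.81) were lower.

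Across 19 sums of at least 100 cells (a cluster in 1 library), the 7 genes varied together to different degrees, given here as description only: the sums share libraries, differ in depth, and include fibroblast-like cells, low in 6 of the 7 genes (all but Tet2). Pearson's r of log2(CPM + 1) was 0.872 for Dnmt1 with Uhrf1 and 0.792 for Dnmt3l with Tet1. Over the same sums Dnmt3b had 0.0879 with Dnmt3l, 0.216 with Tet1 and -0.457 with Tet2. Single pluripotent stem cell-like cells thinned to 10000 UMIs, where counts are sparse, gave other values: r was 0.0327 and 0.0351 at the 2 times for Dnmt1 with Uhrf1, and 0.0403 and 0.0384 for Dnmt3l with Tet1. For Dnmt3b it was 0.169 and 0.154 with Dnmt3l, 0.0630 and 0.0209 with Tet1, and 0.0565 and -0.0296 with Tet2. Among 7531 genes, the highest r over the 19 sums with Dnmt1 was that of Smc3 (0.974), with Uhrf1 that of Tra2b (0.978), followed by the replication licensing inhibitor Gmnn (0.977), and with Tet1 that of the mismatch repair gene Msh6 (0.983). Dnmt3b was most like Wasf1 (0.95), and Lin28a, an RNA-binding protein that blocks let-7, was also among its 3 closest (0.943). Dnmt3l was most like the pluripotency gene Dppa5a (0.982), Tet2 like Jam2 (0.919) and Dnmt3a, whose best match was weakest, like Pabpc4 (0.840).

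**Figure D4:**
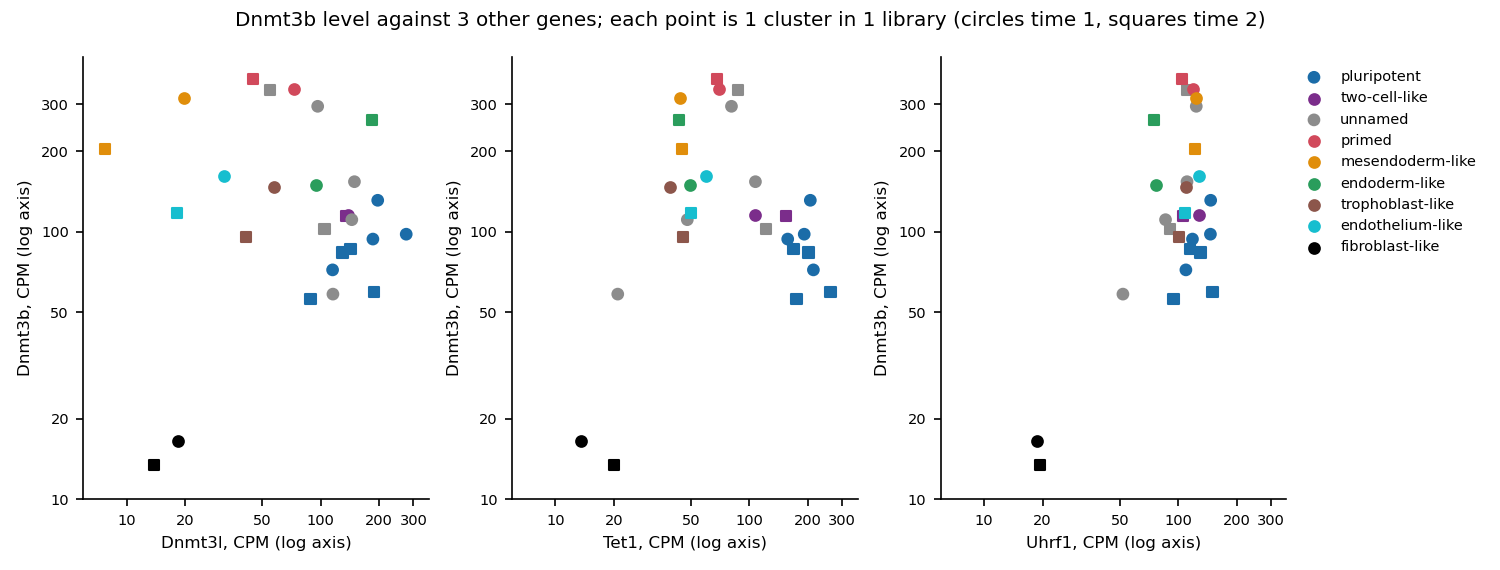
Level of Dnmt3b (y axes, CPM, log scale) against Dnmt3l, Tet1 and Uhrf1 (x axes, CPM, log scale) in each cluster and library with at least 40 cells, coloured by cell class, with circles for time 1 and squares for time 2. The primed sums lie at the top, to the left of the pluripotent stem cell-like sums for Dnmt3l and Tet1, while for Uhrf1 most sums lie close together and the fibroblast-like ones stand apart.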

How the data were processed

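The authors deposited raw UMI counts in whole numbers, with no normalisation; Cell Ranger 6.1.2 and the build GRCm38 are named in the submitters' processing notes. A barcode was kept as a cell when its UMIs reached 18315 (time 1) or 18646 (time 2), which is 0.1 of the 99th percentile among the top 20000 barcodes, with 1000 genes or more and no more than 10% of UMIs from mitochondria. Scrublet's automatic threshold marked 2.14% and 0.294% of cells, which is too few to have worked at time 2, so the 10% of cells with the highest scores were removed instead (2598 and 2876). Clusters came from 2000 variable autosomal genes without the 7 genes and the related lists, 30 components, 15 neighbours and Leiden clustering at resolution 0.5 (scanpy 1.11.5, leidenalg 0.10.2, Python 3.11.15). They were named from a marker list; 12 of 16 were named, and 4, among them the Car2-led cluster and the clusters led by Ulk4 and Rpgrip1 that share Spry2, were left unnamed by a rule set after the clusters were seen, so differences from the study may come from these names.

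UMIs were summed by class and library and expressed as CPM, with exact Poisson intervals for levels, exact binomial ones for folds and Clopper-Pearson ones for shares of cells. Those for levels and folds cover counting error only. Those for shares take cells as independent draws, though the cells come from pooled lines in 1 library. Genes at 10 CPM or more in either class entered the share of all genes past 1.5-fold. X dosage used 397 X-linked and 11221 autosomal genes. A gain was called at 1.3 times or more the time 1 median of pluripotent stem cell-like cells, on a few chosen autosomes only. The other autosomes were not examined, so a cell with no called gain may carry one there. The members and lists were chosen with earlier results of these data known. Named genes were all 7 members, list genes past 1.5-fold on the same side at both times (6 at most per comparison) and the 3 genes most like each member. Dppa3 in two-cell-like cells falls outside this rule and was named after its values were seen. A list gene that the rule names is not reported here. The Car2-led, mesendoderm-like and S against G2/M comparisons were added after the clusters were seen. Sequences are RefSeq's. On counts simulated for primed cells at time 1 (7124 genes), 66 of 66 genes changed 2-fold were called, and 0 of 6924 unchanged ones. For the two-cell-like cluster at time 2 (6745 genes), the numbers were 69 of 74 and 21 of 6545. The counts were Poisson draws from a mean shared by both classes. They cover counting error only and say nothing of variation between cells, lines or libraries. Alternatives changed 1 choice at a time, with trimmed mean factors from edgeR 4.0.16 (R 4.3.3).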

Additional observations from a re-analysis of the deposited data

Results flagged for a closer look

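Dnmt3a lay on opposite sides in two-cell-like cells at the 2 times: its log2 ratio over the other pluripotent stem cell-like cells was -0.34 at time 1 and 0.77 at time 2. The difference between the times was not tested, since each time is 1 library. The two-cell-like cells numbered 51 and 46, and the Dnmt3a level in them rested on 65 UMIs at time 1. Within the two-cell-like cluster, with 61 and 56 cells, the Dnmt3a level at time 2 was 3.12 times that at time 1.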

How the results depend on the processing

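Of 177 counts of members past 1.5-fold recomputed under alternatives, 149 stayed within 1.5 times the count reported, and of 460 member ratios past the limit, 421 stayed past it on the same side. The counts for primed, Car2-led and mesendoderm-like cells and for S against G2/M did not leave that range under any alternative run. The count between libraries, 2, was 1 with trimmed mean scaling, with the Spry2 clusters added, and without the Rhox9-led or the Nanos3-led cluster. For two-cell-like cells at time 1, the count of 3 was 0 with doublets kept and 1 with the Spry2 clusters added. At time 2 the count of 1 was 2 with trimmed mean scaling, doublets kept, the deeper cells, cuts of 20 marker UMIs or 2 thinned ones, or without the 1700097N02Rik-led or the Nanos3-led cluster, and 3 for the cells of the two-cell-like cluster. For X dosage at time 1, the count of 1 was 0 with the Spry2 clusters added or without the Rhox9-led cluster, and 2 without the Jam2-led cluster. At time 2 it was 2 with a pseudocount of 0.1, a mitochondrial limit of 5%, the deeper cells, or without the 1700097N02Rik-led or the Rhox9-led cluster, and 3 with dosage cuts of 1.4 and 1.1 or among cells with no called gain. The pooled Dnmt3a ratio there was reversed, at 0.20, without the 1700097N02Rik-led cluster. For S against G1 the count of 1 at time 1 was 0 in the deeper cells and with the Spry2 clusters added and 3 without the Rhox9-led cluster, and the count of 2 at time 2 was 1 in the deeper cells. The cause was not tested. Trimmed mean scaling shifted all ratios by 0.14 between libraries, by -0.16 and -0.18 for mesendoderm-like, by -0.18 for primed cells at time 2 and by -0.10 for X dosage at time 2. Depth limits Tet2 in small classes, with 26 UMIs in two-cell-like cells and 21 in the endothelium-like cluster at time 1. No paired analysis was possible because each time point has 1 library.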

Other observations

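The trophoblast-like cluster, led by Krt18, Krt8 and Hand1, held 893 cells at time 1 and 207 at time 2. It had Dnmt3l at 57.4 and 41.3 CPM, Tet1 at 39.2 and 45.2 CPM and Tet2 at 4.52 and 5.12 CPM, all lower than in every pluripotent stem cell-like cluster of the same library, while Uhrf1, at 110 and 101 CPM, lay among them. The endothelium-like cluster, with 70 and 181 cells, had Dnmt3a at 64.4 and 95.5 CPM, above every pluripotent stem cell-like cluster of the same library, and Dnmt3l at 31.9 and 18.3 CPM, below every one. The endoderm-like cluster, with 47 and 80 cells, had Dnmt3a at 10.6 and 38.5 CPM and Dnmt3l at 94.4 and 184 CPM, the 2 genes with the largest folds between the libraries in that cluster, 3.63 and 1.95. The summed markers of that cluster moved as well, pluripotency markers from 5543 to 2442 CPM and endoderm markers from 2946 to 6081 CPM, and their part in these folds was not tested.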
